A study of Mus musculus with 14 samples.

Results

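The unfolded protein response genes examined here are Hspa5, Hsp90b1, Pdia4, Dnajb9, Sdf2l1, Herpud1, Manf, Creld2, Xbp1 and Ddit3, 10 genes chosen by name. Of these, 9 had a probe set that carries a single gene symbol, 1 probe set each, and all 9 were bright enough to be tested among 18010 genes, of 22180 named genes in all. The remaining gene, Pdia4, shares its probe set with a microRNA gene in the platform annotation and was not analysed here. The RNA came from jejunum of mice with wild-type LRH-1 (WT, 7 mice) or with the point mutant LRH-1 K289R (7 mice), 1 Affymetrix array each, which the labels call biological replicates. LRH-1 is the nuclear receptor encoded by Nr5a2, and K289R puts an arginine in place of a lysine known to accept the small protein modifier SUMO. Mice of both genotypes were 19 to 21 weeks old, had eaten freely and were killed at 7 am. Strain, sex, zygosity and cage are not given per mouse in the sources used here.

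The endoplasmic reticulum (ER) folds secreted and membrane proteins, and unfolded protein in its lumen sets off 3 sensors, IRE1, PERK and ATF6. IRE1 splices the Xbp1 transcript into one that encodes an active transcription factor, ATF6 is cut to release another, and PERK slows translation while favouring that of ATF4. Together these raise chaperones, folding enzymes and the machinery that removes misfolded proteins. In the gut the response is best known from goblet, Paneth and plasma cells, whose secretory load is heavy. Probe set intensities measure the total transcript and do not separate spliced from unspliced Xbp1.

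The ER stress response element (ERSE), the letters CCAAT and CCACG with 9 bases of any kind between them, is the site through which ATF6 is known to act on chaperone genes. ERSE-II, the letters ATTGG and CCACG with 1 base of any kind between them, is a related site. Both were searched on both strands of the RefSeq promoter windows of mouse build GRCm38.p6, which run from 250 bases before to 50 bases after each gene's start. Of the 10 genes 9 had a window, all but Manf. An ERSE was found in those of Hspa5, Hsp90b1 and Creld2, 3 of 9 windows, against 39 of all 32851 windows (0.119%). ERSE-II was found in that of Herpud1, 1 of 9, against 12 of 32851 (0.0365%). The genes were chosen by name as known genes of this response, and both elements are known from such genes. These counts are therefore a description and no test of enrichment. The 4 promoters are shown because they hold these matches, which are in capitals; each line runs 5′ to 3′ on the gene's strand, from 230 to 31 bases before the start.
Hspa5, chr2:34771860-34772059, plus strand: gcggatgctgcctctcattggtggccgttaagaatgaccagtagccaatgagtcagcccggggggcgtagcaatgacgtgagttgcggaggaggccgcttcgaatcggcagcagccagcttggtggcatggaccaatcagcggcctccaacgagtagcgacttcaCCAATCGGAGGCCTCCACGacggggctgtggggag
Hsp90b1, chr10:86705475-86705674, minus strand: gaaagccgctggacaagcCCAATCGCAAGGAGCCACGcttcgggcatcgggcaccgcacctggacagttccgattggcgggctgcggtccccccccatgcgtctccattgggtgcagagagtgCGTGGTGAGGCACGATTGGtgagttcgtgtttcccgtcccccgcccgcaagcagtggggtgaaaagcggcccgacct
Creld2, chr15:88819416-88819615, plus strand: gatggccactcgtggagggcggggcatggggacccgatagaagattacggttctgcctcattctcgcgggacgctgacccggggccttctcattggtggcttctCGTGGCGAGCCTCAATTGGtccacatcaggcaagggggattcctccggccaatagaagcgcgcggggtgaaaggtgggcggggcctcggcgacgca
Herpud1, chr8:94386199-94386398, plus strand: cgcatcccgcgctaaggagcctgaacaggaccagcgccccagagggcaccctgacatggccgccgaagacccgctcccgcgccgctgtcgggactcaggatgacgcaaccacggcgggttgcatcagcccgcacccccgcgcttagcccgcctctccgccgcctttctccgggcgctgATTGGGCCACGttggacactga

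The Hspa5 match begins 65 bases before the start and the Herpud1 match 52 bases before it. Hsp90b1 has 2 matches, 1 on its own strand beginning 212 bases before the start and 1 on the opposite strand beginning 107 bases before it. The Creld2 match, 126 bases before the start, is on the opposite strand. CCACG, the end of both elements, was in 7 of 9 windows, those 4 and Dnajb9, Sdf2l1 and Pdia4, and in 32.8% of all windows. Neither TGACGTGG, the core of the UPRE through which XBP1 is known to act (0.676% of all windows), nor ATTGCATCA, an ATF4 element (0.192%), was in any of the 9. Only the letters given were searched, and near matches were not counted. TGACGTGA in the Hspa5 line above and GTTGCATCA in the Herpud1 line are such near matches. All matches describe letters in a window and show no binding.

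All samples were jejunum, and the 10 enterocyte markers tested had a mean log2 intensity of 12.95 to 13.39 per array in WT and 13.05 to 13.37 in K289R. Array medians were 168 to 174 on the linear scale, and arrays correlated with r between 0.984 and 0.993 within a genotype. The transcript of Nr5a2 differed by −0.14 (SE 0.092) between K289R and WT on the log2 scale, which a point mutation need not alter. The ileal gene Fabp6 was above a log2 intensity of 8 on WT replicates 1 and 6 and K289R replicates 2 and 7. The 10 cytosolic heat shock genes tested had a mean log2 intensity of 10.18 to 10.80 on WT replicates 1, 2, 6 and 7, of 9.44 to 9.63 on the other 3 WT arrays and of 9.37 to 9.57 on the K289R arrays.

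Between the genotypes, none of the 9 unfolded protein response genes passed limma's test (0 of 9 at an adjusted p under 0.05, against 0.0444% of genes tested, 0.0167% higher and 0.0278% lower in K289R). At an unadjusted p under 0.05 in limma there was 1, Herpud1, which was lower, where 8.48% of genes tested had such a p (4.43% higher and 4.05% lower). The exact permutation test over arrays gave a p under 0.05 for 2 of 9, Herpud1 and Manf. That test was not run over all genes tested, so this count has no share to be set against. Levels in K289R were lower on average for 7 genes and higher for 2, where 52.0% of genes tested were lower. The median difference was −0.12 on the log2 scale, against −0.0039 over all genes tested. For 0 of 9 genes were the arrays of the genotypes apart, as they were for 0.167% of genes tested. Differences are K289R minus WT of log2 intensity throughout, with limma's standard error and 95% interval. In whole tissue, fewer cells of a type and less RNA per cell cannot be told apart.

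**Figure D1:**
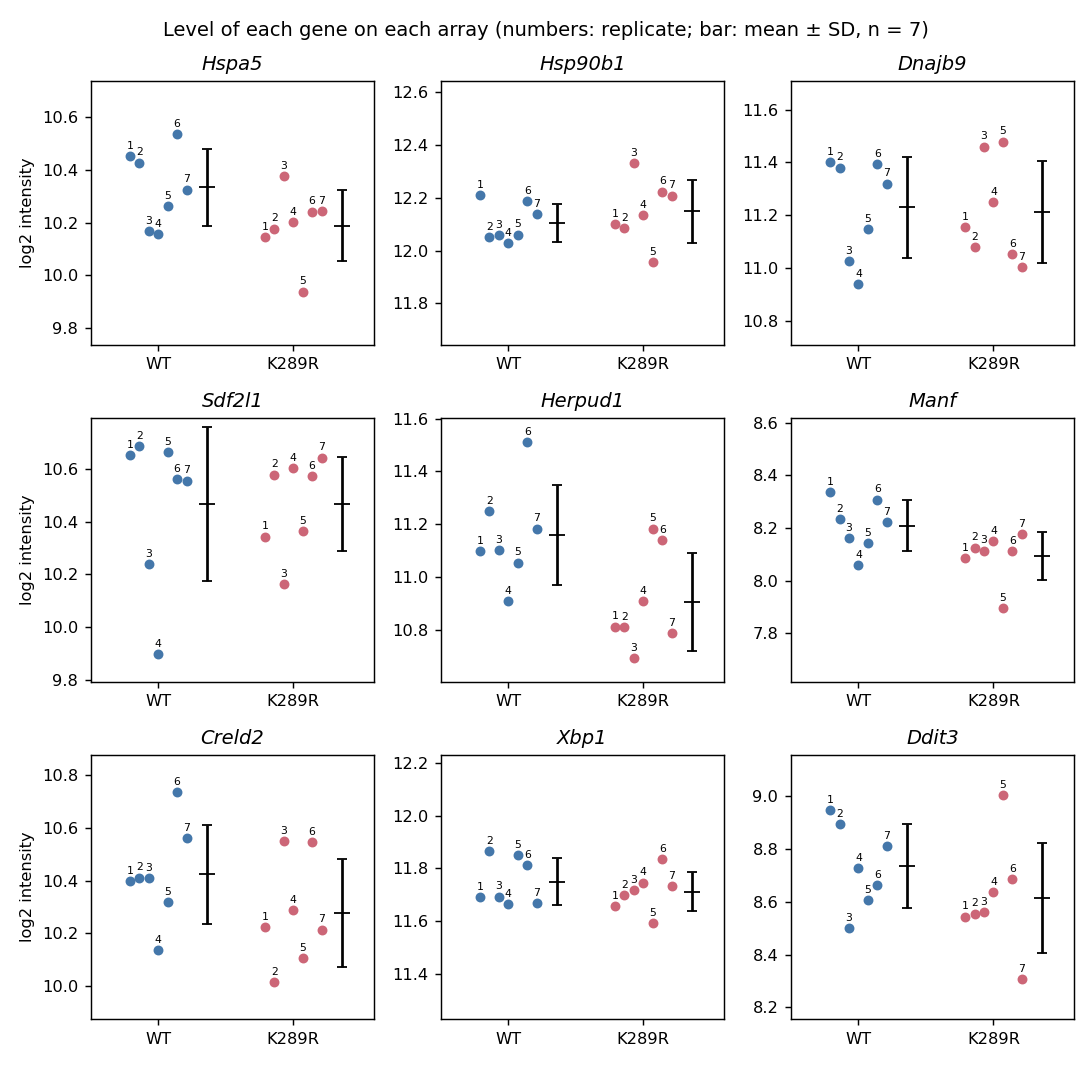
Log2 intensity (vertical axes, each spanning 1 unit) of the 9 measured genes on the 7 WT and 7 K289R arrays, with replicate numbers, and the mean ± SD beside the points. The genotypes overlap for every gene; Manf is lowest on K289R replicate 5 (7.90) and Herpud1 highest on WT replicate 6 (11.51).

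Among the chaperones, Hspa5, which encodes BiP, the Hsp70 of the ER lumen that also holds the sensors inactive, had log2 intensities of 10.16 at the lowest, 10.33 at the median and 10.54 at the highest in WT. In K289R they were 9.94, 10.20 and 10.38. WT replicates 1, 2 and 6 were above every K289R array, K289R replicates 1 and 5 were below every WT array, and the remaining 9 arrays overlapped. The means were 10.33 ± 0.15 (SD, n = 7) and 10.19 ± 0.13 (SD, n = 7), a difference of −0.14 (SE 0.072, 95% interval −0.30 to 0.0076; limma adjusted p = 0.604), or a fold of 0.905.

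Hsp90b1, the ER member of the Hsp90 family known as GRP94, lay between 12.03 and 12.21 in WT with a median of 12.06. In K289R it lay between 11.96 and 12.33 with a median of 12.13. The K289R arrays spread around the WT arrays on both sides, with replicate 3 highest and replicate 5 lowest of all 14. The difference of 0.04 (SE 0.057, interval −0.08 to 0.16; limma adjusted p = 0.843) was well within the spread of the arrays.

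Of the BiP partners, Dnajb9, an ER J-domain protein known as ERdj4 and a common readout of XBP1 activity, had a WT range of 10.94 to 11.40 (median 11.32). Its K289R range was 11.00 to 11.48 (median 11.15). K289R replicates 3 and 5 were the highest of all arrays and WT replicate 4 the lowest, with the genotypes mixed between them. The means, 11.23 ± 0.19 (SD, n = 7) and 11.21 ± 0.19 (SD, n = 7), differed by −0.02 (SE 0.093; limma adjusted p = 0.967).

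Sdf2l1, a partner of BiP and of ER J-domain proteins, ran from 9.90 to 10.69 in WT (median 10.56) and spanned 10.16 to 10.64 in K289R (median 10.57). WT replicate 4 was the lowest array, WT replicate 3 and K289R replicate 3 were next, and the medians were nearly equal. Of the 9 genes it had the widest 95% interval, −0.24 to 0.24 around 0.0013 (SE 0.115; limma adjusted p = 0.997).

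The largest difference of the 9 was that of Herpud1, an ER membrane protein that helps assemble the complex exporting misfolded proteins for degradation. Its log2 intensity was 10.91 at the lowest, 11.10 at the median and 11.51 at the highest in WT, and 10.69, 10.81 and 11.18 in K289R. K289R replicates 1, 2, 3 and 7 were below every WT array, whereas K289R replicates 5 and 6 were above the WT median, and WT replicate 6 was the highest. The means of 11.16 ± 0.19 (SD, n = 7) and 10.90 ± 0.19 (SD, n = 7) differed by −0.25 (SE 0.092, 95% interval −0.45 to −0.06), a fold of 0.839. This did not pass (limma unadjusted p = 0.0134, adjusted p = 0.444; exact permutation p = 0.0280, 2-sided, 1 of 9 such tests), with 6 of 7 K289R arrays below the WT mean.

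The 2 secreted proteins of the ER lumen, Manf and Creld2, had differences of similar size. Manf, a BiP cofactor that is also released as a trophic factor, had WT levels of 8.06 to 8.34 (median 8.22) and K289R levels of 7.90 to 8.18 (median 8.11). All 7 K289R arrays were below the WT mean, and 4 WT arrays, replicates 1, 2, 6 and 7, were above every K289R array. The difference was −0.12 (SE 0.055, interval −0.23 to 0.0011; limma adjusted p = 0.596, exact permutation p = 0.0361).

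Creld2, which takes part in disulphide exchange in the ER, had WT levels of 10.14 to 10.74 (median 10.41) and K289R levels of 10.02 to 10.55 (median 10.22). WT replicates 6 and 7 were the highest arrays, and K289R replicates 2 and 5 were below every WT array. The difference of −0.15 (SE 0.095, interval −0.35 to 0.05) did not pass (limma adjusted p = 0.679).

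Xbp1, the factor gene spliced by IRE1, was among the steadiest of the 9, from 11.66 to 11.86 in WT (median 11.69) and from 11.59 to 11.84 in K289R (median 11.72). The difference was −0.04 (SE 0.051, interval −0.14 to 0.07; limma adjusted p = 0.853). Ddit3, which encodes CHOP, the factor of the PERK arm linked to cell death, ran from 8.50 to 8.95 in WT (median 8.73) and from 8.31 to 9.004 in K289R (median 8.56). K289R held both extremes, replicate 5 at 9.004 and replicate 7 at 8.31. The means differed by −0.12 (SE 0.091, interval −0.31 to 0.07; limma adjusted p = 0.716).

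**Figure D2:**
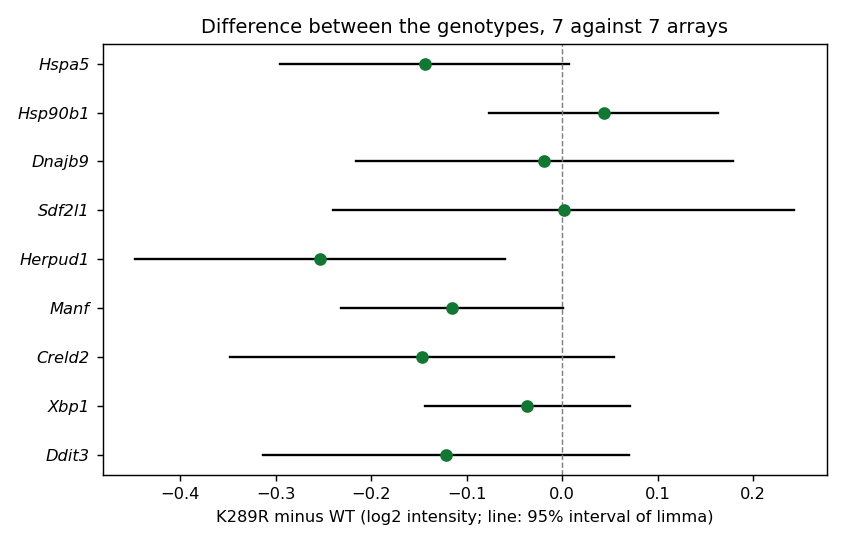
Difference between the genotypes (K289R minus WT, log2 intensity) for each of the 9 genes, with the 95% interval of limma as a line and 0 dashed. Herpud1 (−0.25) is the one gene whose interval does not include 0 before adjustment over all genes tested, and the Hsp90b1 and Sdf2l1 differences (0.04 and 0.0013) lie above 0.

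Over the 9 genes, the intervals of the fold ran from 0.734, the lower bound of Herpud1, to 1.18, the upper bound of Sdf2l1. The standard errors of 0.051 to 0.115 compare with a median of 0.067 over all genes tested. The median within-genotype SD of the 9 genes was 0.186, against 0.127 over all genes tested. Xbp1, Manf and Hsp90b1 varied less than that, with an SD below 0.127 in each genotype.

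The WT arrays with high cytosolic heat shock genes were also the highest of WT for Hspa5, Manf and Dnajb9, and less clearly so for the other genes. On WT replicates 1, 2, 6 and 7, Hspa5 was between 10.33 and 10.54, and on the other 3 WT arrays between 10.16 and 10.26. Manf was between 8.22 and 8.34 on those 4 arrays and between 8.06 and 8.16 on the other 3, and Dnajb9 between 11.32 and 11.40 against 10.94 to 11.15. For these 3 genes the same 4 arrays were the 4 highest of WT. For Herpud1, Sdf2l1, Creld2, Ddit3 and Hsp90b1, 3 of the 4 were among the 4 highest, and for Xbp1 2 were. Hsp90b1 was between 12.05 and 12.21 on the 4 arrays and between 12.03 and 12.06 on the other 3, which overlap. With 4 of 7 WT arrays in this group some agreement is bound to occur, and its share over all genes tested was not counted.

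With the heat shock mean as a covariate in limma, the median difference of the 9 genes was 0.0027, and without those 4 WT arrays (3 WT against 7 K289R) it was −0.0076, compared with −0.12 over all arrays. Both fits were chosen after the values were seen. The 4 arrays were the highest of WT for Hspa5, Manf and Dnajb9, so leaving them out raises those differences by construction. The heat shock mean was 9.37 to 9.57 on the K289R arrays, below those 4, so the covariate is partly confounded with genotype. Herpud1 differed by −0.08 (SE 0.099) with the covariate and by −0.12 (SE 0.106) without the 4 arrays, and Hspa5 by −0.0067 (SE 0.078) and −0.0076 (SE 0.083). Dnajb9 was at 0.18 (SE 0.096) and 0.17 (SE 0.109), the opposite direction to its value over all arrays. Creld2 (0.0027) and Xbp1 (0.0057) with the covariate and Ddit3 without the 4 arrays (0.0024) were also no longer below 0. Without the 4 arrays with Fabp6 above 8, 2 of each genotype, the median difference was −0.02 and Herpud1 differed by −0.15 (SE 0.099). The 2 WT arrays left out there, replicates 1 and 6, were also among the 4 with high heat shock genes, so this fit is not separate from the one without those 4. In each of these 3 fits 0 of 9 genes passed, and 0 had an unadjusted p under 0.05 in limma.

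**Figure D3:**
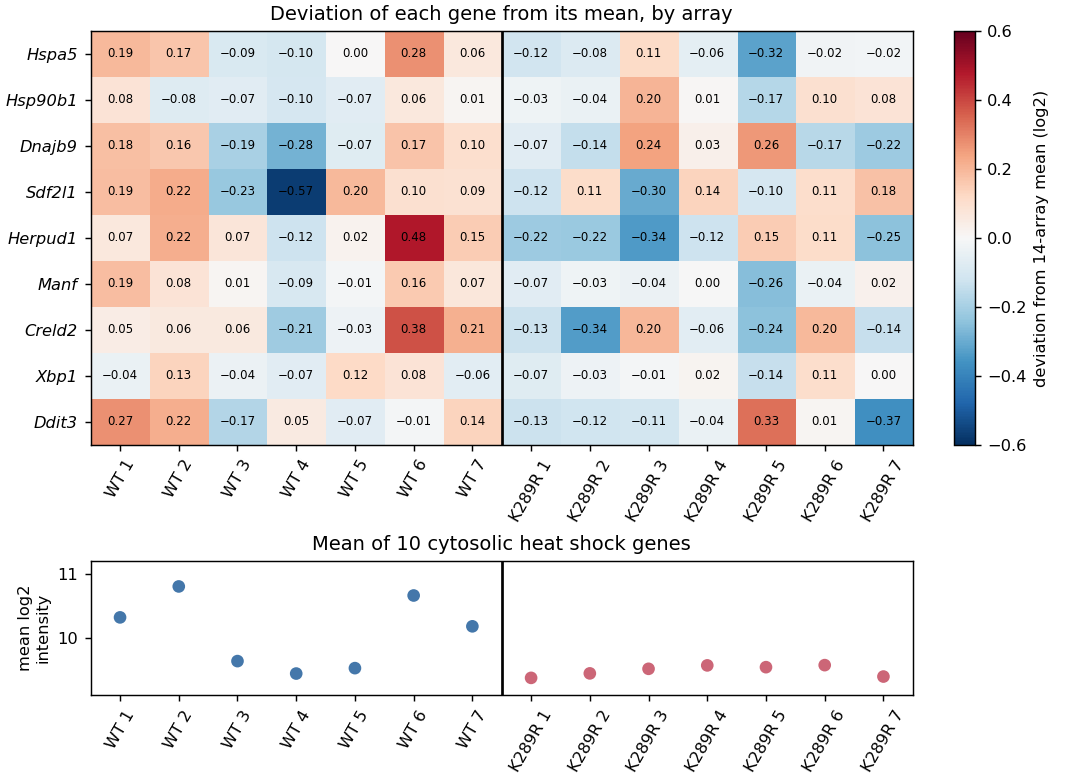
Top: deviation of each gene (rows) from its own mean over the 14 arrays (columns, WT left of the line), in log2 units by colour and number. Bottom: mean log2 intensity of 10 cytosolic heat shock genes on the same arrays. WT replicates 1, 2, 6 and 7 are high below (10.18 to 10.80) and mostly red above, and K289R replicate 5 is split, with Ddit3, Dnajb9 and Herpud1 red and Hspa5, Manf, Creld2, Hsp90b1 and Xbp1 blue.

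The genes did not form 1 block across mice. On K289R replicate 5, Hspa5 (9.94), Manf (7.90), Xbp1 (11.59) and Hsp90b1 (11.96) were at their lowest of all 14 arrays. On the same array Ddit3 (9.004) and Dnajb9 (11.48) were at their highest, and Herpud1 (11.18) was the highest of K289R. Without this array Herpud1 differed by −0.30 (SE 0.089, limma adjusted p = 0.283) and Ddit3 by −0.19 (SE 0.077, adjusted p = 0.380), and the median difference was −0.08.

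K289R replicate 3 showed another split. It had the highest Hsp90b1 of all arrays (12.33) and the highest Hspa5 (10.38) and Creld2 (10.55) of K289R, with Herpud1 (10.69) the lowest of all and Sdf2l1 (10.16) the lowest of K289R. Among other ER folding genes, Dnajb11 was 10.96 on this array and 10.04 to 10.31 on the rest, and Dnajc3 was 11.13 against 10.45 to 10.78. Both encode J-domain proteins that work with BiP, and both were chosen for mention once their values were known.

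For how the 9 genes varied together, all 36 pairs were correlated over the 14 arrays, with permutation p-values adjusted over the 36 pairs. Of these, 31 correlations were positive, with a median r of 0.36, and 2 pairs passed at an adjusted p under 0.05. The arrays share 1 normalization, which also enters each r.

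Hspa5 and Manf moved most closely together, with r = 0.90 (rho = 0.81; permutation p = 4.0e-05 and 6.4e-04, adjusted p = 0.00144 and 0.0230). Within WT r was 0.90 and within K289R 0.81, and without WT replicate 6 and K289R replicate 5, the 2 arrays farthest from the median of Hspa5, r was 0.77 (permutation p = 0.0027). Hspa5 and Creld2 were next with r = 0.74 (rho = 0.72; permutation p = 0.00247 and 0.00485, adjusted p = 0.0445 and 0.0873), with 0.72 in WT, 0.67 in K289R and 0.58 without the same 2 arrays (permutation p = 0.0489). Without the 2 arrays this pair no longer passed over the 36 (permutation adjusted p = 0.156). They were the lowest and highest of Hspa5, so leaving them out narrows its range, which by itself tends to lower r. With genotype means subtracted r was 0.69 (permutation adjusted p = 0.0447).

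Hspa5 and Hsp90b1, the pair of major ER chaperones, had r = 0.61 over all arrays (rho = 0.56; permutation p = 0.0211 and 0.0399, adjusted p = 0.145 and 0.205). It was 0.76 within WT and 0.97 within K289R, and 0.44 without the 2 arrays farthest from the median. With genotype means subtracted it was 0.85 (permutation adjusted p = 0.00216). In WT the 3 genes Hspa5, Manf and Dnajb9 varied together, Hspa5 with Dnajb9 at r = 0.94 and Manf with Dnajb9 at 0.92 (n = 7, exact permutation adjusted p = 0.0357 for each). In K289R the same pairs had r = −0.23 and −0.65 (n = 7, exact permutation adjusted p = 0.831 and 0.235), and whether WT and K289R differ was not tested. Over all 14 arrays they had r = 0.36 and 0.15 (permutation adjusted p = 0.381 and 0.731), and without the 2 arrays farthest from the median, K289R replicate 5 and 1 WT array, 0.83 and 0.57 (permutation adjusted p = 0.0461 and 0.156). Ddit3 went less with the chaperones, with r = 0.05 for Hspa5 (permutation adjusted p = 0.912) and −0.34 for Hsp90b1 (0.395), and 0.62 for Dnajb9 (0.145). Its r with Hspa5 was 0.62 without K289R replicate 5 and WT replicate 6 (permutation adjusted p = 0.126).

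**Figure D4:**
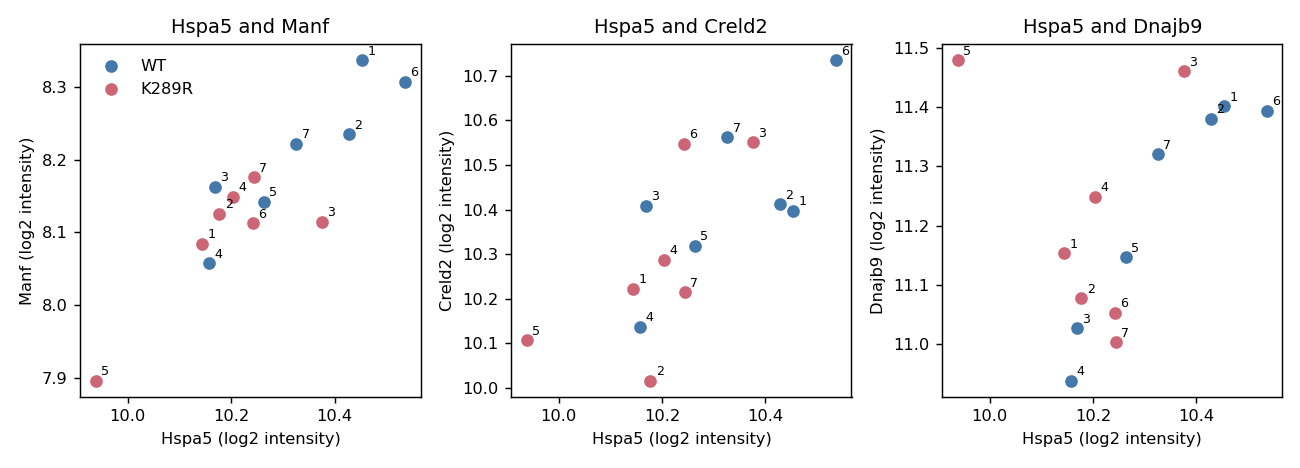
Log2 intensity of Hspa5 (horizontal) against Manf, Creld2 and Dnajb9 (vertical), 1 point per array with its replicate number, WT blue and K289R red. Manf follows Hspa5 in both genotypes (r = 0.90 over 14 arrays); K289R replicate 5 sits low on both axes for Manf but at top left for Dnajb9, away from the WT arrays (r = 0.94 within WT).

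The genes outside the 9 whose pattern was most like their mean were found after standardising each gene and subtracting genotype means, over 14 arrays. They were Npc2 (r = 0.94), a cholesterol-binding protein of the lysosome, Supt20 (0.93), a subunit of the SAGA coactivator complex, Hsp90aa1 (0.92), the stress-inducible cytosolic Hsp90, Mmgt2 (0.91), Ftx (0.89), a long noncoding RNA gene, and Ctsk (0.88), the cysteine protease cathepsin K. These genes were picked for their r from 18001, of which the middle 95% had r between −0.61 and 0.63, so the values are a description. Hsp90aa1 was between 9.995 and 10.27 on WT replicates 1, 2, 6 and 7 and between 9.45 and 9.56 on the other WT arrays. By list, the median r was 0.70 for the 10 cytosolic heat shock genes, 0.54 for the 9 Paneth cell markers, 0.39 for the 18 ER folding genes and −0.44 for the 10 enterocyte markers. Other lists of the response were at 0.35 (translocon and ER to Golgi), 0.30 (ER-associated degradation), 0.17 (PERK-ATF4) and 0.13 (sensors and their activators). Plasma cell markers were at 0.26, distal small intestine at 0.24, goblet at 0.22, mitochondrial genes at 0.12, pancreatic acinar at 0.03 and smooth muscle at 0.02. The cell type lists share genes with those of the response. Nupr1, the highest Paneth marker (r = 0.73), is also on the PERK-ATF4 list. Ern2 is on the goblet and sensor lists, and Derl3 on those of plasma cells and ER-associated degradation.

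In the rest of the pathway, 5 lists of the unfolded protein response held 79 other genes, each counted once. Of these 0 passed limma's test, 4 had an unadjusted p under 0.05 (8.48% of all genes tested had one), and 47 were higher and 32 lower (median 0.02). With the cytosolic heat shock and mitochondrial lists added there were 94 genes, of which 0 passed, 12 had an unadjusted p under 0.05, and 49 were higher and 45 lower, with a median of 0.0059.

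The sensors and their activators, 10 of 10 tested, had 7 genes higher and 3 lower and a median of 0.05, with 0 at an unadjusted p under 0.05 in limma. Ern2, the IRE1 of gut epithelium and goblet cells, differed by 0.13 (SE 0.074, adjusted p = 0.623), and Mbtps2, the site-2 protease that cuts ATF6, by 0.13 (SE 0.077).

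ER folding genes, 18 of 20 tested, had a median of 0.02, with 11 higher, 7 lower and 0 past limma's threshold. Dnajc10, an ER reductase with a J domain, differed by 0.20 (SE 0.082, unadjusted p = 0.0294), and Hyou1, the large Hsp70-like exchange factor of BiP, by −0.12 (SE 0.059).

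Among 14 genes of ER-associated degradation, the pathway of Herpud1, the median was −0.02, with 6 higher, 8 lower and 0 past limma's threshold. Syvn1, the ubiquitin ligase HRD1 that Herpud1 binds, ranged from 10.17 to 10.57 in WT (median 10.37) and from 9.76 to 10.22 in K289R (median 10.17). All 7 K289R arrays were below the WT mean, by −0.26 on average (SE 0.081; limma unadjusted p = 0.00486, adjusted p = 0.392), and its partner Sel1l differed by −0.09 (SE 0.046). Syvn1 was highest on WT replicates 1, 2, 6 and 7, and without those arrays it differed by −0.11 (SE 0.094).

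The translocon and ER to Golgi genes, 17 of 18 tested, had a median of 0.0074, 9 higher and 8 lower, with 0 past limma's threshold. Kdelr3, a receptor that returns ER proteins from the Golgi, differed by 0.21 (SE 0.073, unadjusted p = 0.0101) with all 7 K289R arrays above the mean of WT, and Ssr1 differed by 0.11 (SE 0.061).

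The PERK-ATF4 list of 20 genes, the arm that ends in Ddit3, had a median of 0.06, with 14 higher, 6 lower and 0 past limma's threshold. Atf3, a stress factor gene downstream of ATF4 and of other signals, had WT levels of 9.81 to 10.58 and K289R levels of 10.03 to 10.92 and differed by 0.49 (SE 0.128; limma unadjusted p = 0.00137, adjusted p = 0.277). Vldlr differed by 0.12 (SE 0.058).

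The mitochondrial unfolded protein response list had 6 of 7 genes lower and a median of −0.05, with 0 past limma's threshold. It shares the chaperonin genes Hspe1 and Hspd1 with the heat shock list. Hspe1 differed by −0.21 (SE 0.065) and the protease gene Yme1l1 by 0.14 (SE 0.071). The cytosolic heat shock list, 10 of 12 tested, had 9 of 10 lower in K289R and a median of −0.26, with 8 at an unadjusted p under 0.05 in limma and 0 past the threshold. Hsph1 differed by −1.15 (SE 0.260, adjusted p = 0.142), with levels of 8.82 to 10.77 in WT and 8.23 to 8.93 in K289R. Hspa1b, an inducible Hsp70, differed by −1.91 (SE 0.552, adjusted p = 0.341) and reached 12.68 on WT replicate 2; its near-identical copy Hspa1a can share its signal.

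**Figure D5:**
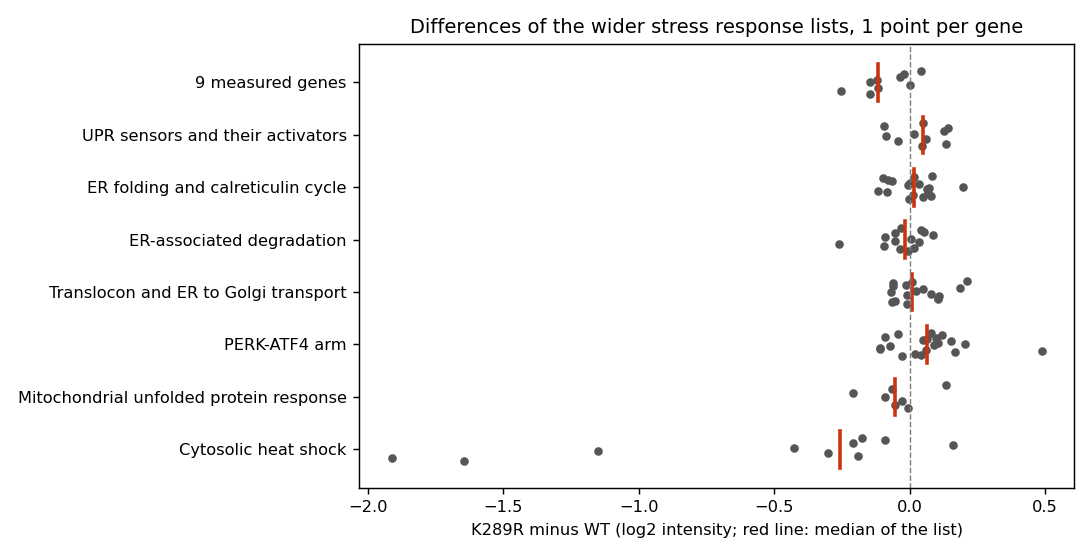
Difference between the genotypes (K289R minus WT, log2 intensity, horizontal) of each tested gene of the 9 measured unfolded protein response genes and of 7 related lists, with the median of each list in red. The ER lists centre between −0.02 and 0.06, the 9 genes at −0.12 and the cytosolic heat shock genes at −0.26, with 3 of the latter beyond −1.

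Markers of goblet, Paneth and plasma cells, the secretory cells named above, had medians above 0 in K289R against WT. The 10 goblet markers had a median difference of 0.06, the 9 Paneth markers of 0.08 and the 11 plasma cell markers of 0.08, with 0 past limma's threshold in each list and 1, 0 and 2 at an unadjusted p under 0.05. Their mean log2 intensity per array was 11.58 to 11.83 in WT and 11.63 to 11.90 in K289R for goblet cells. For Paneth cells it was 11.40 to 11.95 and 11.59 to 12.02, and for plasma cells 8.85 to 9.37 and 8.95 to 9.54. Pancreatic acinar cells, also rich in ER, had 7 of 12 markers tested, with means of 7.97 to 8.22 in WT and 8.02 to 8.25 in K289R. All 8 smooth muscle markers were on the K289R side, by a median of 0.25, with 6 at an unadjusted p under 0.05 and 0 past limma's threshold, and means of 10.68 to 10.87 in WT and 10.66 to 11.16 in K289R. With the mean of these markers added to limma's model, the median difference of the 9 genes was −0.09. That mean had a median over arrays of 10.74 in WT and 11.06 in K289R, so this covariate is partly confounded with genotype. Herpud1 differed by −0.40 (SE 0.112) and Syvn1 by −0.44 (SE 0.086), each farther from 0 than without that mean. Ddit3, Hsp90b1 and Sdf2l1 were also farther from 0, and Sdf2l1 changed sign to −0.14 (SE 0.148). Hspa5 (−0.09), Creld2 (−0.03), Manf (−0.11), Xbp1 and Dnajb9 had smaller differences than without it. In this fit 0 of 9 unfolded protein response genes passed in limma (1 at an unadjusted p under 0.05). With the plasma cell mean added instead, the median difference of the 9 genes was −0.11, and with the pancreatic acinar mean −0.07.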

How the data were processed

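Jejunal RNA of 14 mice, 7 WT and 7 K289R, was measured on 1 array each. The deposited values are probe set intensities on a linear scale (7.40 to 20050.3), made with Affymetrix Expression Console per the submitters' processing notes; its version and how it corrected background, summarised and normalized probes were not given. Log2 values were taken. Of 41345 probe sets, 23521 had 1 gene symbol, 1814 several and 16010 none. The brightest probe set stood for a gene, and genes were kept if their mean reached the 25th percentile (log2 6.25) over probe sets, which left 18010. Background left in the intensities would compress differences of dim genes.

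Genotypes were compared with limma 3.58.1 in R 4.3.3 (lmFit, eBayes, 2-sided, Benjamini-Hochberg over all genes tested, threshold 0.05). The steps were tested on simulated data. Exact permutation tests used all 3432 splits of the arrays, and correlations 100000 permutations, or all orders within a genotype. The smallest exact p possible is 0.000583. Members and lists were chosen with earlier results of these data known. Named genes are the members, the 2 genes with the smallest p of each pathway list and the 6 most alike; others are said to be chosen after their values were known. Protein sequences were not used here. The number of arrays limits the precision, and no pair of arrays was identical.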

Additional observations from a re-analysis of the deposited data

Results flagged for a closer look

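In 46 groups of 7 arrays (23 named genes in 2 genotypes), 3 had an array far from the other 6, with a gap to its nearest neighbour above 0.568 of the group's range; chance alone gives about 1 in 20 such groups. Manf was 7.90 on K289R replicate 5, where the next array was 8.08. Syvn1 was 9.76 on K289R replicate 3, where the next array was 10.04. Yme1l1, the mitochondrial protease gene, was 11.32 on K289R replicate 3, where the next array was 10.86.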

How the results depend on the processing

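The count of unfolded protein response genes past the threshold was 0 of 9 in all 28 alternative fits, 14 of which left out 1 array, and so was that of the 94 pathway genes; the lowest adjusted p of any of the 9 genes was 0.190, with the smooth muscle covariate. The median difference ran from −0.13 to −0.07 (without K289R replicate 7) with 1 array left out and was 0.0027 with the heat shock covariate and −0.0076 without the WT arrays with high heat shock genes; the cause was not tested. Signs turned for 5 of the 9 genes and for Vldlr, none of them past the threshold. Sdf2l1 was at −0.0030 with quantile normalization, −0.04 with the pancreatic covariate (−0.044) and the plasma cell covariate (−0.042), −0.14 with the smooth muscle covariate, and −0.093 (without WT replicate 4) to 0.052 (without K289R replicate 3) with 1 array left out. Dnajb9 was at 0.0043 with the pancreatic covariate, 0.12 without the Fabp6 arrays, 0.18 with the heat shock covariate, 0.17 without the WT arrays with high heat shock genes, and −0.067 (without WT replicate 4) to 0.016 (without K289R replicate 7) with 1 array left out. Creld2 (0.0027) and Xbp1 (0.0057) turned with the heat shock covariate, Ddit3 (0.0024) without those WT arrays, and Vldlr (−0.0099) with the smooth muscle covariate. The labels do not say that replicate numbers pair the mice. Same-numbered arrays did not deviate alike (r −0.15 to 0.17, and 0 of 7 correlated best with their own number), which cannot settle whether mice were paired. With the replicate block 0 of 9 genes passed in limma, the median stayed at −0.12 and Herpud1 had an adjusted p of 0.423. Over all genes tested 8 passed, and 0 to 14 in the alternatives (0 with the replicate block, 4 to 14 with 1 array left out). Of the 36 pairs 2 passed over all arrays, 1 within K289R, 2 within WT and 5 with genotype means subtracted.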
